A study of Mus musculus with 24 samples.

Results

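The comparison described here is between organ of Corti (OC) explants exposed to gentamicin (GM) for 6 h and explants kept for 6 h without drugs (CTRL). It was made up of the libraries labelled gentamicin and control at 6 h, 3 of each and 6 of the 24 in the series, and of all genes in the count table. The table held 24454 genes, of which 16317 had enough counts to be tested. The OC is the sensory epithelium of the cochlea, with mechanosensitive hair cells (HCs) and supporting cells, and gentamicin is an aminoglycoside antibiotic that is toxic to HCs. All explants came from P5 C57BL/6N mouse pups of both sexes and were cultured for 24 h before the treatment, and 6 OCs were pooled for each library. GM explants received 50 μM gentamicin. The other groups used below were 10 μM pioglitazone (PIO), a drug that activates PPAR-γ, and both drugs (PIO + GM) at 6 h, and CTRL and GM at 24 h, each with 3 libraries.

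Totals of counted reads were 12660352, 11809855 and 12416638 in the CTRL libraries and 11668171, 11656327 and 15013413 in the GM libraries, so that 3 counts stood for 0.204 to 0.264 CPM (counts scaled to library totals with TMM factors). Libraries of the same group differed by more than counting error, with a chi-square of 10.9 to 38.8 per degree of freedom. Pooled OCs give bulk RNA, in which fewer cells of a type and less RNA per cell cannot be told apart. The labels do not say that the 3 libraries of a group came from separate litters or culture days, so p-values measure the spread between these samples. Some libraries stood apart: CTRL replicate 2 was the highest control for most interferon genes and chemokines, CTRL replicate 3 was the lowest control for most of the interferon genes named below (not for Gbp6 and Gbp9, where it was the highest) and the highest for several genes of supporting cells and HCs, and GM replicate 3 was the lowest GM library for HC genes and the highest for macrophage and MHC class I genes.

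Of the 10 genes with the lowest p among those higher with GM without overlap, 7 were in lists of the interferon (IFN) response, which works as follows. Sensors of foreign or misplaced nucleic acid, such as Ddx58 (RIG-I), signal through the adaptor Mavs to the factor Irf3, which switches on IFN genes. Secreted IFN binds receptors that carry the kinases Jak1 and Tyk2, which activate STAT factors, and these join Irf9 on a DNA element in the promoters of IFN-stimulated genes. The products block virus replication, attach the ubiquitin-like protein Isg15 to other proteins, attack intracellular vacuoles and present antigen, and Irf7, Usp18 and the Socs proteins feed back on the pathway. In the cochlea, gentamicin enters HCs through their mechanotransduction channels, and macrophages reside in the tissue.

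The core of the DNA element bound by STAT factors with Irf9 is GAAA, any 2 bases and GAAA again, which reads as TTTC, any 2 bases and TTTC on the other strand. It was looked for on both strands, from 250 bases before to 50 bases after the annotated gene start, with overlapping matches counted. The promoter stretches of 4 genes that carry it are printed here as examples of it in genes with a higher GM mean, chosen among the carriers. Isg15 and Trim12c had all GM libraries above all CTRL libraries at 6 h, and Gbp2 and Cxcl10 had higher GM means with overlapping libraries. The sequences are RefSeq's on build GRCm38.p6, lie before the transcript start of the RefSeq promoter table, and read 5′ to 3′ on the strand of the gene, with motif matches in capitals. They cover chr4:156200840-156200919 on the minus strand for Isg15, chr7:104353350-104353413 on the minus strand for Trim12c, whose start in that table lies slightly inside the outer bound of the gene, chr3:142620569-142620648 on the plus strand for Gbp2 and chr5:92349058-92349137 on the minus strand for Cxcl10.
Isg15: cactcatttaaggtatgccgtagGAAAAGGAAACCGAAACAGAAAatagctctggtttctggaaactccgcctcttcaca
Trim12c: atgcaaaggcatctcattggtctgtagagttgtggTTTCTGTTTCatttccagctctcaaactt
Gbp2: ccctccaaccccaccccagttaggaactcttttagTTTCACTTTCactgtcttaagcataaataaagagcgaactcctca
Cxcl10: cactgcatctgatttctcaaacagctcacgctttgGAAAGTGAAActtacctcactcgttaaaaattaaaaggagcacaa

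Isg15 held 3 overlapping matches, of which the one nearest to the start ended 56 bases before it. The match ended 49 bases before the start in Gbp2, 19 in Trim12c and 203 in Cxcl10. Of the tested genes with a promoter sequence, 458 of 12624 (3.63%) held the motif. The share was 9 of 10 (90.0%) for the IFN-inducible GTPases, 22 of 43 (51.2%) for the antiviral effectors, 7 of 19 (36.8%) for the nucleic acid sensors, 3 of 11 (27.3%) for the ISGylation and PARP genes, 5 of 22 (22.7%) for MHC class I, 1 of 6 (16.7%) for MHC class II and 4 of 30 (13.3%) for IFN signalling genes. Most genes of these lists other than the GTPases and antiviral effectors lacked it in this window. Among genes that were higher with GM at an unadjusted p under 0.05, chosen without the motif, 39 of 118 (33.1%) held it, against 1 of 60 (1.67%) of those lower. No match was found in this window of Ifi44, Herc6, Crx, Irf7 or Phf11d, which says only that these letters are not in it.

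No gene passed the adjusted threshold of 0.05 between GM and CTRL at 6 h in edgeR's quasi-likelihood test (0.0% of 16317 genes), and the smallest adjusted p was 1.00. DESeq2 also called 0 genes, with a smallest adjusted p of 0.152. At an unadjusted p under 0.05, 157 genes (0.962%) were higher with GM and 86 (0.527%) were lower in edgeR, and 140 and 94 in DESeq2. Without CTRL replicate 2 these were 176 and 199 in edgeR, and without CTRL replicate 1 they were 233 and 180. The 3 GM libraries lay above the 3 CTRL libraries in 513 genes (3.14%) and below them in 341 (2.09%). Over all tested genes the median log2 fold change was -0.0014 and 49.7% were above 0. Levels below are in CPM, differences are GM minus CTRL on the log2 scale with their standard error (SE), and p-values are unadjusted edgeR values unless they are called adjusted.

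Parp9, an ADP-ribosyltransferase family member that acts with the ubiquitin ligase Dtx3l in the IFN response, had the lowest p of all tested genes. It lies at chr16:35938470-35972621 (GRCm38, Entrez 80285). Its level was 23.2, 24.7 and 14.5 CPM in CTRL and 38.5, 41.5 and 45.4 in GM. All GM libraries were above all CTRL libraries, with a difference of 1.01 (SE 0.22).

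Trim12a and Trim12c are neighbouring genes of a cluster of antiviral TRIM ubiquitin ligases on chromosome 7, at chr7:104299893-104315558 and chr7:104338754-104353358. Trim12a was at 6.27, 5.73 and 4.55 CPM in CTRL and at 8.08, 10.5 and 11.4 in GM, a difference of 0.86 (SE 0.18). Trim12c was at 15.7, 12.0 and 10.6 CPM in CTRL and at 19.1, 20.1 and 27.6 in GM, a difference of 0.80 (SE 0.20). Neither gene's groups overlapped, and neither was in the IFN lists used below. Of the read-length windows of Trim12c, 15.9% are also found in other genes, Trim12a among them, so reads may be split between them. Trim34a, in the same cluster at chr7:104244448-104262244, differed by 0.77 (SE 0.25) without overlap, and shares 30.9% of its windows with its copy Trim34b.

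Herc6, which attaches Isg15 to proteins in the mouse, was at 5.07, 8.65 and 3.35 CPM in CTRL and at 11.6, 14.2 and 16.7 in GM. The difference was 1.32 (SE 0.34), and 22.3% of its windows also lie in an overlapping gene model. Eif2ak2 (PKR), a kinase that stops translation on double-stranded RNA, was at 49.4, 62.8 and 41.8 CPM in CTRL and at 67.2, 79.4 and 87.6 in GM, a difference of 0.60 (SE 0.16). Both genes had all GM libraries above CTRL.

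The guanylate-binding proteins Gbp6, Gbp9 and Gbp7, GTPases that act on membranes around intracellular microbes, were also among the 10 genes with the lowest p. Gbp6 was at 35.8, 40.1 and 43.2 CPM in CTRL and at 62.2, 56.0 and 78.1 in GM (difference 0.72, SE 0.19), but 55.0% of its windows are shared with other Gbp genes. Gbp9 was at 20.0, 23.9 and 28.0 CPM in CTRL and at 29.9, 33.4 and 47.6 in GM (difference 0.63, SE 0.17, and 0.41 without GM replicate 3). Gbp7 was at 13.4, 24.7 and 9.66 CPM in CTRL and at 29.9, 36.1 and 42.5 in GM (difference 1.19, SE 0.34). None of the 3 overlapped between groups.

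The remaining genes of the 10 were Phf11d and Crx. Phf11d was at 2.49, 3.79 and 1.44 CPM in CTRL and at 5.38, 5.14 and 7.82 in GM (difference 1.25, SE 0.34). Crx encodes a homeodomain factor known from photoreceptors, is in no IFN list and lies at chr7:15865947-15879955. It was at 0.643, 0.529 and 0.639 CPM in CTRL and at 2.19, 1.85 and 1.84 in GM, a difference of 1.68 (SE 0.41) with levels that were low in both groups.

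**Figure D1:**
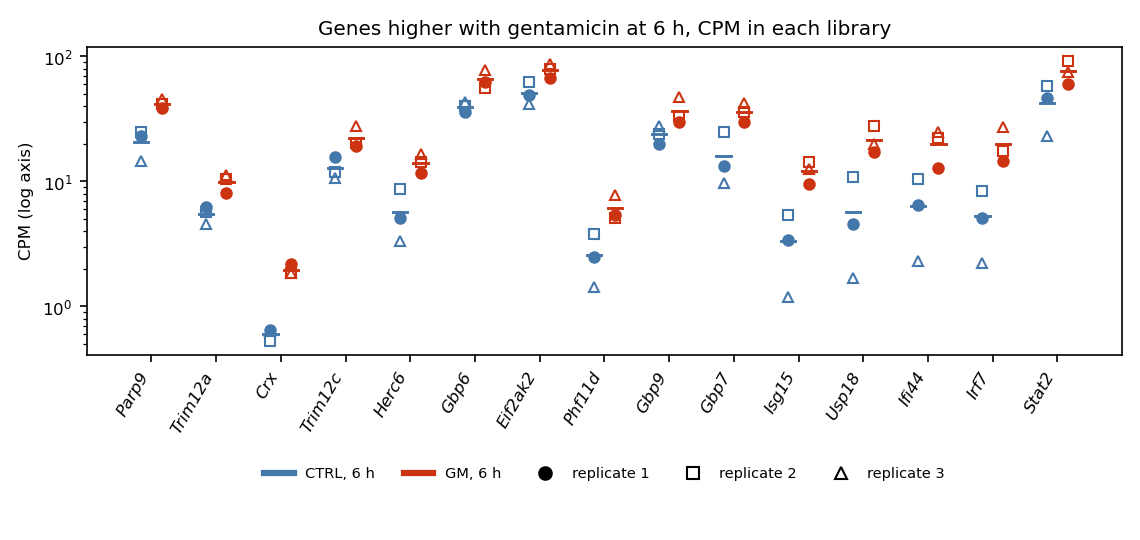
CPM (log axis) of 15 genes in each of the 3 CTRL (blue) and 3 GM (red) libraries at 6 h, with bars for the means and symbols for the replicate numbers. In each gene shown the 3 GM points lie above the 3 CTRL points, and CTRL replicate 2 is the highest CTRL point in most IFN genes, as in Usp18, where it was at 10.8 CPM.

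Several IFN genes were followed by the study itself, on these samples. Of these, Isg15 (chr4:156199424-156200818, Entrez 100038882) was at 3.38, 5.38 and 1.20 CPM in CTRL and at 9.51, 14.3 and 12.7 in GM, a difference of 1.88 (SE 0.57). Usp18, the protease that removes Isg15 and dampens receptor signalling, was at 4.58, 10.8 and 1.68 CPM in CTRL and at 17.2, 27.7 and 20.0 in GM (difference 1.94, SE 0.68). Ifi44 was at 6.51, 10.4 and 2.32 CPM in CTRL and at 12.8, 22.1 and 24.7 in GM (difference 1.63, SE 0.59). These 3 genes did not overlap between groups, but in each of them the CTRL libraries spread over a wider fold range than separated the highest CTRL from the lowest GM library.

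Genes of the IFN response were described by lists of known members, ordered here by role. Taken as 186 distinct tested genes, 1.14% of all tested, the IFN lists had 154 genes higher with GM, 64 with an unadjusted p under 0.05 and higher, and 0 with such a p and lower. The 64 were 34.4% of these genes, where 0.962% of all tested genes were called the same way, and they made up 40.8% of the 157. Without overlap of the groups, 60 were above control and 1, Ptpn2, was below. No member passed the adjusted threshold.

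The IFN genes themselves could not be tested. None of 20 listed ligand genes had enough counts: the highest count in any of the 6 libraries was 6, the counts of all 20 summed to 54 over the CTRL and 46 over the GM libraries, and 4 genes had no count in any of them. At these depths a difference in ligand RNA was not detectable.

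Nucleic acid sensors and their adaptors had a median difference of 0.30 over 25 tested genes, of which 20 were higher, 7 had an unadjusted p under 0.05 and 9 did not overlap. Ddx58 was at 39.9, 48.4 and 26.4 CPM in CTRL and at 56.4, 75.7 and 79.3 in GM (difference 0.88, SE 0.25). Dhx58 was at 3.14, 3.97 and 2.16 CPM in CTRL and at 5.05, 5.64 and 9.32 in GM (difference 1.12, SE 0.37). Both receptors had GM libraries above CTRL without overlap.

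Zbp1, a sensor of left-handed nucleic acid that can trigger cell death, was at 3.54, 3.62 and 2.48 CPM in CTRL and at 6.90, 6.82 and 11.4 in GM (difference 1.38, SE 0.45). Ifi204 was at 2.73, 4.32 and 1.20 CPM in CTRL and at 5.47, 6.23 and 7.89 in GM (difference 1.25, SE 0.38), and shares 20.6% of its windows with neighbouring family members. The adaptor Mavs, through which Ddx58 signals, differed by -0.05 (SE 0.18) with overlapping groups. The median of the list was 0.58 without CTRL replicate 2 and 0.17 without CTRL replicate 3, and the 7 genes with an unadjusted p under 0.05 became 4 without CTRL replicate 3.

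Signalling genes from the receptors to the STAT and IRF factors were on balance close to control. Of 40 tested genes, 23 were higher, the median difference was 0.02, and 4 had an unadjusted p under 0.05. Without CTRL replicate 3, and also without GM replicate 2, the 4 became 2. Stat2 was at 46.2, 57.5 and 23.3 CPM in CTRL and at 60.6, 92.0 and 75.5 in GM, a difference of 0.85 (SE 0.33) without overlap that was 0.56 without CTRL replicate 3.

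Irf7, the factor that amplifies IFN production, was at 5.15, 8.38 and 2.24 CPM in CTRL and at 14.6, 17.6 and 27.3 in GM (difference 1.92, SE 0.62), again without overlap. Irf9, which binds DNA together with Stat2, was at 45.1, 65.7 and 38.1 CPM in CTRL and at 60.6, 77.5 and 67.3 in GM (difference 0.46, SE 0.22, and 0.72 without CTRL replicate 2) with overlapping groups. The genes named so far in this group are themselves IFN-stimulated.

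Irf3, Jak1 and Pias1, also of this list, differed by less than their SE. Irf3 was at 35.9, 42.3 and 41.9 CPM in CTRL and at 36.4, 40.7 and 42.7 in GM, a difference of -0.00 (SE 0.18) whose sign changed with the scaling. Jak1 was at 289, 419 and 294 CPM in CTRL and at 283, 281 and 364 in GM (difference -0.11, SE 0.14). Pias1, an inhibitor of STAT signalling, differed by 0.05 (SE 0.12). Groups overlapped in these 3 genes.

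Among the negative regulators, Socs1, which blocks JAK kinases, was at 3.14, 4.68 and 3.67 CPM in CTRL and at 2.27, 3.71 and 3.40 in GM (difference -0.29, SE 0.29, and -0.10 without GM replicate 1) with overlap. Ptpn2, a phosphatase that acts on Jak1, was at 82.0, 99.2 and 91.9 CPM in CTRL and at 80.8, 78.8 and 74.7 in GM. All GM libraries of Ptpn2 were below CTRL, with a difference of -0.22 (SE 0.15).

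Antiviral effectors were the longest IFN list. With GM, 51 of 52 tested genes were higher, with a median difference of 0.86, 29 had an unadjusted p under 0.05, and 26 did not overlap. The mean log2 CPM over the list was 2.94, 3.45 and 2.38 in CTRL and 3.45, 3.98 and 4.15 in GM, so that GM replicate 1 stood at about the level of CTRL replicate 2. Without CTRL replicate 3 the number with an unadjusted p under 0.05 was 15, and without GM replicate 3 it was 19.

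Cmpk2, a mitochondrial nucleotide kinase next to the antiviral gene Rsad2, was at 8.53, 15.3 and 8.39 CPM in CTRL and at 21.0, 33.5 and 27.6 in GM (difference 1.35, SE 0.43) without overlap. Trim14, an adaptor of the Mavs pathway, was at 0.563, 1.06 and 0.639 CPM in CTRL and at 1.60, 2.78 and 1.90 in GM (difference 1.47, SE 0.45), again without overlap.

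ISGylation, PARP and ubiquitin-like genes were higher in 16 of 16 tested, with a median difference of 0.95. Of these, 10 had an unadjusted p under 0.05 and 11 did not overlap. The median was 0.64 without CTRL replicate 3, and the 10 genes became 7 without it and 7 without GM replicate 3. The mean log2 CPM was 3.61, 3.96 and 3.06 in CTRL and 4.21, 4.58 and 4.64 in GM. All GM libraries were above all CTRL libraries in this mean.

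IFN-inducible GTPases were higher in 17 of 17 tested, with a median of 0.92, 10 genes with an unadjusted p under 0.05 and 7 without overlap. Their mean log2 CPM was 2.91, 3.69 and 2.44 in CTRL and 3.63, 4.16 and 4.30 in GM, with GM replicate 1 below CTRL replicate 2. The median was 1.48 without CTRL replicate 2, and the 10 genes became 6 without CTRL replicate 1. Irgm2, which regulates other GTPases of the family, was at 12.4, 16.0 and 6.63 CPM in CTRL and at 19.3, 30.2 and 29.9 in GM (difference 1.18, SE 0.38). Gbp2 was at 12.2, 28.5 and 7.11 CPM in CTRL and at 18.8, 29.2 and 42.0 in GM (difference 0.92, SE 0.45), with overlapping groups and a difference of 1.64 without CTRL replicate 2 and 0.57 without CTRL replicate 3.

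MHC class I and peptide loading genes were higher in 24 of 27 tested, with a median of 0.33, and 4 had an unadjusted p under 0.05. This rested on a single library. The mean log2 CPM was 3.55, 3.48 and 3.13 in CTRL and 3.48, 3.48 and 4.24 in GM, and without GM replicate 3 the median was 0.01, with 14 of 27 genes higher and 0 with such a p. Without CTRL replicate 3 the 4 genes became 1.

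Within the MHC class I list, the non-classical gene H2-T22 was at 15.8, 14.0 and 14.5 CPM in CTRL and at 19.3, 19.5 and 29.4 in GM (difference 0.62, SE 0.21, and 0.40 without GM replicate 3), and shares 19.1% of its windows with related genes. H2-T24 was at 1.21, 0.706 and 0.719 CPM in CTRL and at 1.51, 2.53 and 3.06 in GM (difference 1.43, SE 0.55). Tap1, which pumps peptides into the endoplasmic reticulum, was at 8.36, 10.9 and 4.39 CPM in CTRL and at 12.7, 12.5 and 19.7 in GM (difference 0.92, SE 0.41). These 3 genes did not overlap between groups, while H2-T23 did, with a difference of 0.79 (SE 0.30) that was 0.47 without GM replicate 3.

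MHC class II genes mark professional antigen-presenting cells. Of 9 tested genes of 14 listed, 3 were higher and the median was -0.09, which was -0.40 without GM replicate 3 and 0.01 without GM replicate 2. H2-Ab1 differed by 0.45 (SE 0.62) and Cd74 by 0.03 (SE 0.47), with overlapping groups and signs that changed when single libraries were left out.

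**Figure D2:**
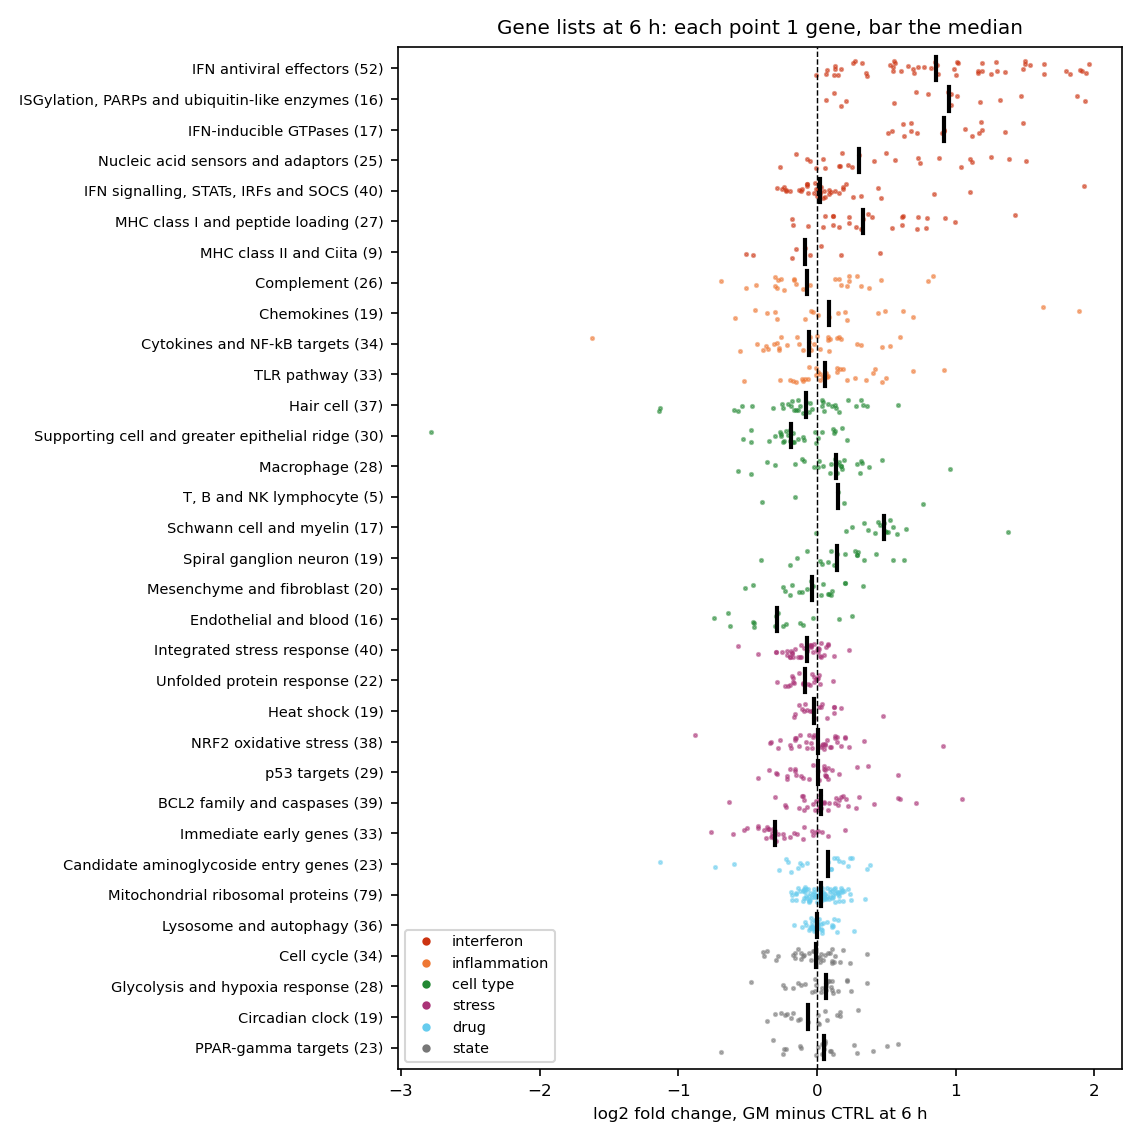
log2 fold changes (GM minus CTRL at 6 h) of the tested genes of each list, 1 point a gene, with a black bar for the list's median, the number of tested genes in brackets and a dashed line for the median of all tested genes (-0.0014). Antiviral effectors (median 0.86), ISGylation and PARP genes (0.95) and GTPases (0.92) lie to the right of the other lists.

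Markers of the cell types in the explants were read beside the IFN lists. Macrophage genes were higher in 20 of 28, with a median of 0.14 and no gene with an unadjusted p under 0.05 in either direction or without overlap. Their summed level was 151 to 285 CPM in CTRL and 143 to 303 in GM, and no marker was at 0. Their mean log2 CPM of 1.92, 2.82 and 1.91 in CTRL and 1.91, 2.13 and 2.86 in GM was highest in CTRL replicate 2 and GM replicate 3, which were also the highest libraries of their groups for the antiviral effectors. Without GM replicate 3 the macrophage list had 4 of 28 genes higher and a median of -0.31, and without CTRL replicate 2 it had 24 of 28 higher and a median of 0.50. Without CTRL replicate 1 or 3 its median was -0.04 or -0.06. The part of macrophage content in the IFN result was not tested.

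Schwann cell and myelin genes were higher in 16 of 17, with a median of 0.48, and 0 genes had an unadjusted p under 0.05 or lacked overlap. Their summed level was 1122 to 2621 CPM in CTRL and 1410 to 3540 in GM. The mean log2 CPM was 5.33, 5.76 and 4.84 in CTRL and 5.74, 6.36 and 5.13 in GM, and the groups overlapped. Without GM replicate 2 the median of the list was 0.11. Its part in the IFN result was not tested. Only 5 of 17 lymphocyte markers and 2 of 10 neutrophil markers had enough counts to be tested.

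**Figure D3:**
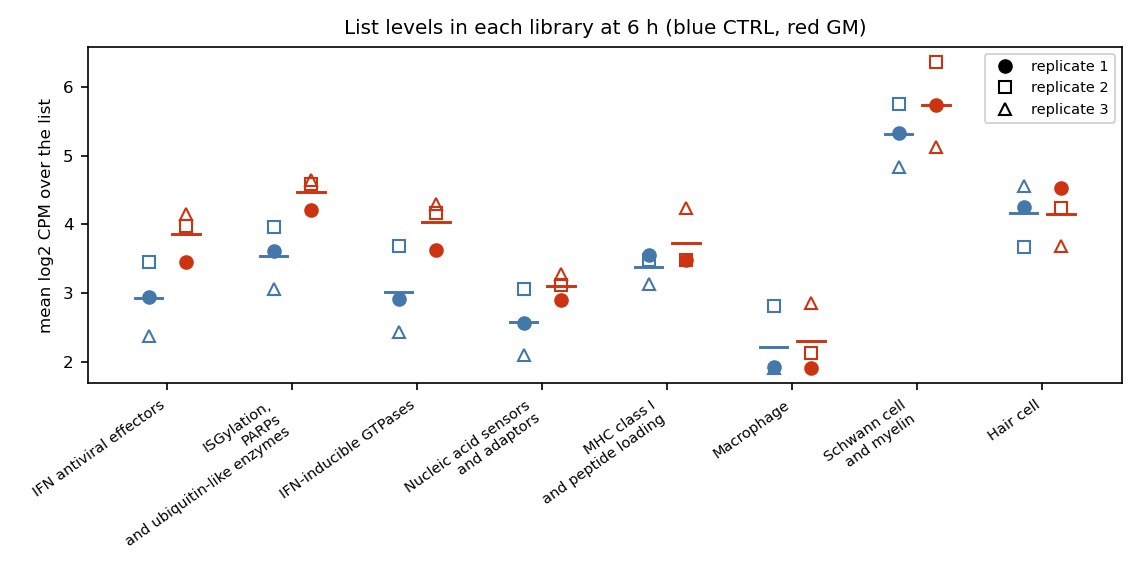
Mean log2 CPM over the tested genes of 8 lists in each CTRL (blue) and GM (red) library at 6 h, with bars for the group means and symbols for the replicate numbers. For the ISGylation list all GM libraries (4.21 to 4.64) lie above all CTRL libraries (3.06 to 3.96), while the macrophage, Schwann cell and HC lists overlap.

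HC markers were present in all 6 libraries, as the labelled tissue requires, and did not differ by more than the spread between libraries. Of 37 tested HC genes 15 were higher, the median was -0.08, and 1 had an unadjusted p under 0.05, in the lower direction. Their mean log2 CPM was 4.26, 3.67 and 4.55 in CTRL and 4.53, 4.23 and 3.68 in GM. The median ranged from -0.29 without GM replicate 1 to 0.20 without CTRL replicate 3.

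The HC gene with the widest spread among those named was Tmc2, a mechanotransduction channel of young HCs, at 3.06, 1.59 and 9.26 CPM in CTRL and 3.28, 2.11 and 1.02 in GM (difference -1.13, SE 0.56), where CTRL replicate 3 was the highest library and the difference without it was -0.13. Tecta, which encodes α-tectorin of the tectorial membrane, was also highest there, at 1609, 939 and 4399 CPM in CTRL and 2242, 1444 and 1109 in GM (difference -0.54, SE 0.43), and its difference was 0.33 without that library.

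Supporting cell and greater epithelial ridge genes were higher in 7 of 30 tested, with a median of -0.18, which was 0.04 without CTRL replicate 3. Hes5, a Notch target of supporting cells, had the lowest p of the list. It was at 1.85, 0.529 and 7.91 CPM in CTRL and at 0.337, 0.590 and 0.544 in GM, which is 23, 6 and 99 counts against 4, 7 and 8. The difference was -2.78 (SE 0.90), the groups overlapped at CTRL replicate 2, and without CTRL replicate 3 the difference was -1.26.

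Other cell types gave medians near 0 or of wide range. Neuron genes were higher in 15 of 19 (median 0.15) and mesenchyme genes in 9 of 20 (median -0.04). The neuron median was 0.45 without GM replicate 3 and 0.04 without GM replicate 2, and the mesenchyme median -0.19 without GM replicate 3 and 0.11 without GM replicate 1. Endothelial and blood genes were higher in 2 of 16, with a median of -0.29 that turned to 0.11 without CTRL replicate 2 and was -0.60 without GM replicate 3.

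Inflammatory genes outside the IFN response were described next, because the study asked how the drugs act on inflammation. Toll-like receptor (TLR) pathway genes were higher in 21 of 33 tested, with a median of 0.06 and 0 with an unadjusted p under 0.05. The median was 0.21 without CTRL replicate 2 and -0.04 without CTRL replicate 3. Tlr4, the receptor for bacterial lipopolysaccharide, was at 31.1, 46.0 and 28.4 CPM in CTRL and at 30.3, 39.6 and 52.3 in GM (difference 0.21, SE 0.23), with a difference of 0.0004 without GM replicate 3 and 0.46 without CTRL replicate 2. Tlr2 was at 13.0, 31.1 and 18.2 CPM in CTRL and at 13.5, 15.7 and 14.0 in GM (difference -0.53, SE 0.27), with CTRL replicate 2 as the highest library and a difference of -0.12 without it. Both overlapped.

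Their common adaptor Myd88 differed by 0.35 (SE 0.30) with overlap, and by 0.18 without CTRL replicate 3. Tlr3, the endosomal receptor for double-stranded RNA, was at 23.2, 17.8 and 12.6 CPM in CTRL and at 24.1, 24.9 and 26.8 in GM. All GM libraries of Tlr3 were above CTRL, with a difference of 0.50 (SE 0.27) that was 0.31 without CTRL replicate 3.

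Chemokines were higher in 11 of 19 tested genes, with a median of 0.09 that ranged from -0.10 without CTRL replicate 1 to 0.86 without CTRL replicate 2. Cxcl10, an IFN-induced attractant of T cells, was at 2.49, 8.38 and 3.03 CPM in CTRL and at 7.57, 27.0 and 16.7 in GM (difference 1.89, SE 0.80). Replicate 2 was the highest library of both groups, and the groups overlapped. Ccl5 was at 0.483, 0.529 and 0.160 CPM in CTRL and at 0.925, 0.927 and 1.77 in GM, a difference of 1.63 (SE 0.95) without overlap at low counts.

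Ccl2 and Ccl12 attract monocytes. Ccl2 was at 7.32, 51.1 and 8.39 CPM in CTRL and at 9.67, 32.2 and 10.1 in GM (difference -0.36, SE 0.85), and Ccl12 differed by 0.44 (SE 0.72). Without CTRL replicate 2 the differences were 1.14 and 1.80. The cytokine Il1b was at 0.724, 6.97 and 0.399 CPM in CTRL and at 0.337, 2.02 and 0.272 in GM (difference -1.63, SE 1.10). In Ccl2 and Il1b replicate 2 was far above the other libraries of both groups, and signs changed in all 3 genes when a library was left out.

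Cytokines and NF-kB targets were higher in 14 of 34 tested genes (median -0.05) and complement genes in 12 of 26 (median -0.07), with no gene at an unadjusted p under 0.05 in the higher direction. Both turned without CTRL replicate 2, to 26 of 34 higher with a median of 0.26 and to 18 of 26 with a median of 0.27. Cd46, a complement regulator, differed by 0.29 (SE 0.29) with all GM libraries above CTRL.

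Stress responses were near control at 6 h. Integrated stress response genes were higher in 13 of 40 (median -0.08, and -0.01 without CTRL replicate 3), unfolded protein response genes in 5 of 22 (-0.08), heat shock genes in 9 of 19 (-0.02), NRF2 targets in 19 of 38 (0.00) and p53 targets in 15 of 29 (0.01). The sign of the last 4 of these medians changed when single libraries were left out. Among NRF2 targets, Nqo1, a quinone reductase, was at 14.6, 5.47 and 5.27 CPM in CTRL and at 10.0, 7.25 and 30.1 in GM (difference 0.91, SE 0.57). The difference was 0.04 without GM replicate 3, the highest library, and 1.57 without CTRL replicate 1. Gstm1, a glutathione transferase, was at 12.5, 9.09 and 11.9 CPM in CTRL and at 9.34, 8.17 and 9.05 in GM (difference -0.34, SE 0.15), with 14.6% of its windows shared with related genes.

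BCL2 family and caspase genes were higher in 26 of 39, with a median of 0.03 that was -0.02 with 19 of 39 higher without GM replicate 3 and 0.10 without GM replicate 2. Casp1, the inflammatory caspase that matures Il1b, was at 0.483, 0.618 and 0.320 CPM in CTRL and at 1.01, 0.843 and 1.09 in GM, a difference of 1.05 (SE 0.47) without overlap at low counts. Casp12 was at 5.55, 4.76 and 4.07 CPM in CTRL and at 6.56, 4.97 and 10.2 in GM (difference 0.60, SE 0.28) with overlap, and the difference was 0.27 without GM replicate 3.

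Immediate early genes, which respond fast to growth factors and stretch, were lower in most members, with 4 of 33 higher and a median of -0.30. The median was -0.08 and 13 were higher without CTRL replicate 2. Ccn2, a target of YAP and TGF-β signalling, was at 34.2, 64.5 and 99.9 CPM in CTRL and at 37.9, 38.8 and 40.0 in GM (difference -0.77, SE 0.34) with overlap, and the difference was -0.34 without CTRL replicate 3.

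Genes tied to the entry and the targets of aminoglycosides were also followed. Candidate entry genes were higher in 12 of 23 tested (median 0.08, and -0.08 without CTRL replicate 2), and Lrp2 (megalin), an endocytic receptor for gentamicin in the kidney, differed by -0.22 (SE 0.27), and by -0.06 without GM replicate 2. Aminoglycosides bind bacterial ribosomes and can act on the mitochondrial ribosome, whose protein genes were higher in 45 of 79 (median 0.03). Lysosome and autophagy genes were higher in 18 of 36 (median -0.00, and -0.05 to 0.05 without single libraries).

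Cell cycle genes were higher in 17 of 34 (median -0.01), glycolysis and hypoxia genes in 17 of 28 (median 0.07) and PPAR-γ targets in 15 of 23 (median 0.05). The cell cycle median was -0.15 without GM replicate 3 and 0.10 without CTRL replicate 3, and that of PPAR-γ targets -0.02 without GM replicate 3. The glycolysis list had 1 of 28 genes higher and a median of -0.24 without GM replicate 3, and 25 of 28 and a median of 0.38 without GM replicate 2. Circadian clock genes were higher in 9 of 19 (median -0.06, and -0.14 without CTRL replicate 3 and -0.004 without GM replicate 2). Of the 19 genes, 3 lay below control without overlap, where 2.09% of all tested genes did. Of these, Cry1, a repressor of the clock, was at 60.6, 68.5 and 59.8 CPM in CTRL and at 50.7, 51.9 and 50.5 in GM (difference -0.30, SE 0.16).

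None of the 86 genes that were lower with GM at an unadjusted p under 0.05 was in the IFN lists. Nlrp5-ps, a pseudogene, had the lowest p among genes without overlap, at 21.9, 34.1 and 33.6 CPM in CTRL and 20.4, 18.9 and 17.4 in GM (difference -0.66, SE 0.22), but 59.8% of its windows are found in other genes. Acy3, an aminoacylase at chr19:3986570-3990007, was at 2.17, 2.47 and 2.40 CPM in CTRL and at 0.841, 1.60 and 1.63 in GM (difference -0.78, SE 0.26).

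In several other genes 1 control library stood high. Phlda1, an early response gene, was at 24.4, 54.4 and 19.6 CPM in CTRL and at 15.5, 18.4 and 16.9 in GM (difference -0.95, SE 0.33), with CTRL replicate 2 the highest and a difference of -0.38 without it. Rasd2, a small GTPase, was at 12.1, 10.9 and 38.1 CPM in CTRL and at 10.9, 9.52 and 7.35 in GM (difference -1.14, SE 0.41), with CTRL replicate 3 the highest and a difference of -0.31 without it. Hs3st3b1, a heparan sulfate sulfotransferase, was at 22.7, 23.3 and 42.0 CPM in CTRL and at 22.6, 18.7 and 20.5 in GM (difference -0.51, SE 0.18), with CTRL replicate 3 again the highest and a difference of -0.15 without it.

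The other 5 of the 10 genes were Cox6b2, Corin (-1.71, SE 0.62), Cryzl2 (-0.51, SE 0.19, and -0.22 without CTRL replicate 3), Inca1 (-0.96, SE 0.32) and Snord96a (-1.08, SE 0.42), given as differences where a value follows the name. Cox6b2, a testis form of a cytochrome c oxidase subunit, was at 0.804, 1.59 and 0.878 CPM in CTRL and at 0.421, 0.421 and 0.748 in GM, and its difference was -0.63 without CTRL replicate 2. Corin is a protease that activates natriuretic peptide. Snord96a is a small nucleolar RNA inside Rack1, and all of its windows lie in that gene, so its counts cannot be told from those of its host.

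**Figure D4:**
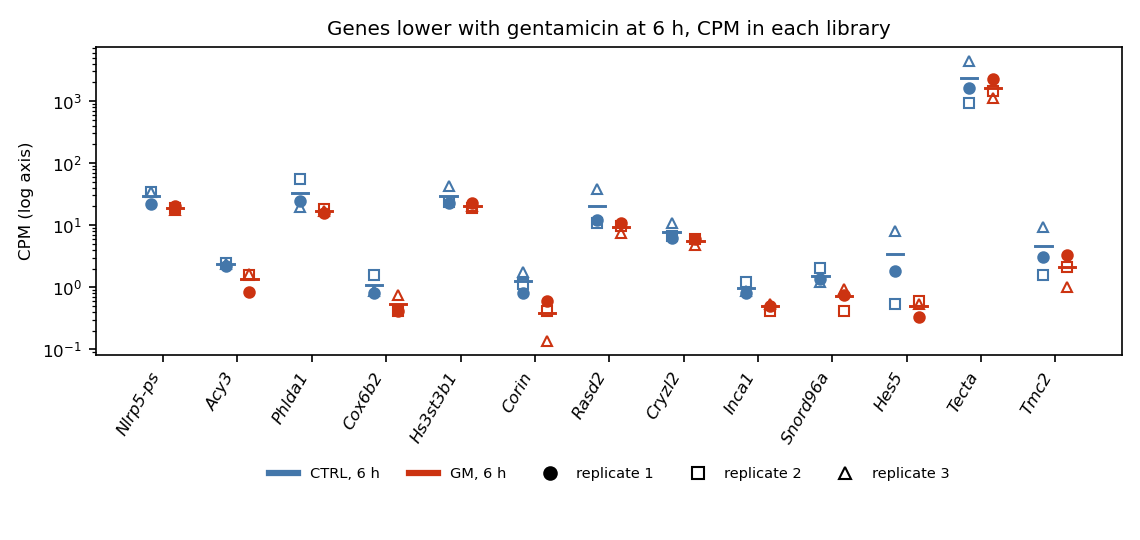
CPM (log axis) of genes that were lower with GM at 6 h in each of the 3 CTRL (blue) and 3 GM (red) libraries, with bars for the means and symbols for the replicate numbers. Acy3 separates the groups with CTRL libraries between 2.17 and 2.47 CPM, while the groups of Hes5, Tecta and Tmc2 overlap and CTRL replicate 3 is their highest library, as in Rasd2.

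The same drug was given for 6 h to explants that also received pioglitazone, so PIO + GM against PIO gave the gentamicin difference in 6 libraries that the first comparison did not use. No gene passed the adjusted threshold in edgeR (0.0%), with 190 genes higher (1.16%) and 309 lower (1.89%) at an unadjusted p under 0.05, and DESeq2 called 1. The balance rested on single libraries: the counts were 1498 and 1962 without PIO replicate 2, 467 and 1598 without PIO + GM replicate 1, 402 and 263 without PIO + GM replicate 3, 150 and 107 without PIO replicate 3, 167 and 155 without PIO replicate 1, 204 and 183 without PIO + GM replicate 2, and 145 and 68 in a fit of the 12 libraries of 6 h. Of the 157 genes higher without pioglitazone, 118 (75.2%) were also higher with it, where 50.3% of all tested genes were higher, and their median difference was 0.59. Without PIO + GM replicate 1 the median was 0.38, with 116 higher. For 51 of the 157 (32.5%) all PIO + GM libraries were above all PIO libraries, against 1.7% of all tested genes. The 93 of the 157 outside the IFN lists were higher in 55 (59.1%), with a median of 0.08 that was 0.02 with 49 higher without PIO + GM replicate 3 and 0.14 with 62 higher without PIO + GM replicate 2. Of the 86 lower genes, 38 (44.2%) were lower with pioglitazone, where 49.7% of all genes were (their median of 0.03 turned to -0.06 without PIO + GM replicate 2), and 2 (2.33%) were lower without overlap, against 1.67% of all genes.

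Of the 7 tested IFN lists, 4 had most of their genes higher in these libraries too. Antiviral effectors were higher in 50 of 52 with a median of 0.88, ISGylation and PARP genes in 15 of 16 with a median of 0.81, GTPases in 17 of 17 with a median of 1.22 and sensors in 21 of 25 with a median of 0.56. Of the GTPases, 16 did not overlap, and of the antiviral effectors 20. MHC class I genes were higher in 13 of 27 with a median of -0.02, IFN signalling genes in 19 of 40 with a median of -0.01 and MHC class II genes in 3 of 9 with a median of -0.22. Without PIO + GM replicate 1 the medians of the first 4 lists were 0.57, 0.38, 0.83 and 0.24, and that of the MHC class I list was -0.28, with 7 of 27 genes higher, and 0.15 without PIO replicate 3. The Schwann list had a median of 0.72 with 17 of 17 genes higher, but -0.03 with 6 of 17 without PIO + GM replicate 1 and 1.53 without PIO replicate 2. Neuron genes were higher in 16 of 19 (median 0.59), chemokines in 13 of 19 (0.58) and cytokines and NF-kB targets in 27 of 34 (0.23). Without PIO + GM replicate 1 these medians were 0.14, 0.04 and -0.22. Macrophage genes were higher in 11 of 28, with a median of -0.13 that was 0.21 without PIO replicate 3. Of 33 immediate early genes 24 were higher, with a median of 0.18 that was -0.07 without PIO + GM replicate 1 or 2. The GC content of a gene was related to its difference more strongly here (Spearman's rho -0.459 over 15389 genes) than without pioglitazone (0.126), and its part in these list values was not tested.

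Isg15 was at 5.00, 2.22 and 2.75 CPM in PIO and at 21.7, 9.23 and 5.67 in PIO + GM, a difference of 1.88 that equals the value without pioglitazone to 2 decimals, without overlap, and 1.17 without PIO + GM replicate 1. Crx was at 0.702, 0.741 and 0.434 CPM in PIO and at 1.78, 1.12 and 2.16 in PIO + GM (difference 1.42), again without overlap. Cxcl10 differed by 2.74. Usp18 (1.74) and Irf7 (1.15) overlapped between PIO and PIO + GM, and H2-T22 differed by 0.20. Without PIO + GM replicate 1 these were 1.10, -0.03 and -0.01.

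Among the lower genes, Hes5 was at 3.16, 1.06 and 2.89 CPM in PIO and at 0.254, 0.562 and 0.405 in PIO + GM, a difference of -2.52 with all PIO + GM libraries below PIO. Acy3 differed by -0.72, also without overlap. Phlda1 differed by 0.29 with pioglitazone, and by 0.09 without PIO + GM replicate 2, 0.10 without PIO replicate 1, 0.54 without PIO replicate 2 and 0.52 without PIO + GM replicate 3. Rasd2 differed by 0.02, which turned to -0.18 without PIO replicate 2.

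**Figure D5:**
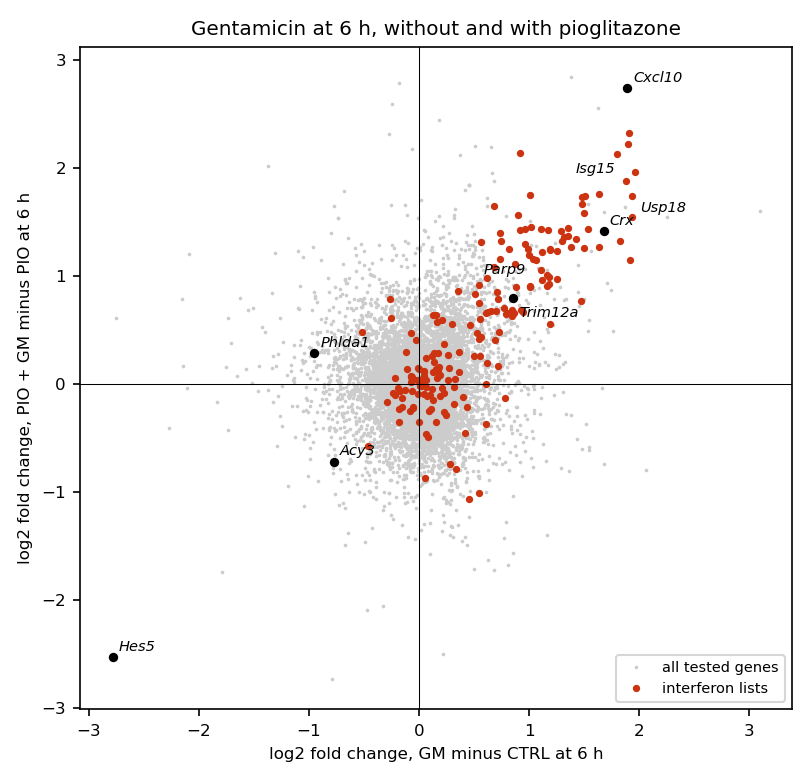
log2 fold change for GM minus CTRL (x axis) and for PIO + GM minus PIO (y axis) at 6 h, 1 point a gene, with all tested genes in grey and the genes of the IFN lists in red and named genes outside them in black. Red points reach far into the upper right, with Isg15 at 1.88 on both axes, and Acy3 and Hes5 lie in the lower left.

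The mean of both gentamicin differences at 6 h was tested over the 12 libraries in the same model, and 2 genes (0.0123%) passed the adjusted threshold, both higher. Parp9 rose with a mean difference of 0.96 (SE 0.15, adjusted p = 0.0341 in edgeR), at 24.0, 22.1 and 24.7 CPM in PIO and 56.5, 37.5 and 38.5 in PIO + GM. Trim12a rose with a mean difference of 0.83 (SE 0.13, adjusted p = 0.0341), at 7.72, 8.58 and 8.97 CPM in PIO and 15.8, 12.0 and 16.2 in PIO + GM. Each was higher in 6 of 6 libraries with GM than in every library without it at the same pioglitazone state.

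These calls were close to the threshold, and none was made in a fit of the 12 libraries alone or with a GC trend removed, while a replicate block gave 8 and DESeq2 gave 49, 48 of them higher. Herc6 (1.34, SE 0.24), Gbp6 and Eif2ak2 had an adjusted p of 0.0683 each and Crx (1.55, SE 0.29) of 0.0839, and at an unadjusted p under 0.05, 237 genes were higher (1.45%) and 109 lower (0.668%). These were 692 and 713 without PIO replicate 2, 381 and 528 without PIO + GM replicate 1, 364 and 202 without GM replicate 3, 306 and 274 without CTRL replicate 2, and 202 and 28 in the 12 libraries. Isg15 had an adjusted p of 0.149, Hes5 (-2.65, SE 0.66) of 0.278 and Acy3 of 0.308. Leaving out 1 of the 24 libraries gave 0 calls for 15 of them, with smallest adjusted p-values of 0.0535 to 0.149. At 6 h these were CTRL replicates 1 and 3, GM replicates 2 and 3, all PIO replicates, and PIO + GM replicates 1 and 3. At 24 h they were CTRL replicate 1, GM replicate 3, all PIO replicates and PIO + GM replicate 2. Without CTRL replicate 2 at 6 h there were 16 calls, and without PIO + GM replicate 2 at 6 h or CTRL replicate 2 at 24 h there were 4.

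The gentamicin difference with pioglitazone was not shown to differ from that without it, since no gene passed the test of the difference itself (0.0% in edgeR), with 89 genes at an unadjusted p under 0.05 in the higher and 204 in the lower direction. These numbers were 959 and 1331 without PIO replicate 2, 206 and 1062 without PIO + GM replicate 1, 250 and 252 without PIO + GM replicate 3, 163 and 356 without CTRL replicate 1, 157 and 320 without GM replicate 2, 158 and 271 without CTRL replicate 3, 72 and 98 without CTRL replicate 2, 76 and 107 without GM replicate 3, 60 and 78 without PIO replicate 3, 80 and 113 without PIO + GM replicate 2, and 32 and 44 in the 12 libraries of 6 h. Both 6 h comparisons separated their groups in the same direction for 53 genes higher (0.325% of tested) and 8 lower (0.049%). Of the 53, 30 were in the IFN lists and 23 outside them. The 8 lower genes were 1700052K11Rik, Acy3, Cox4i1, Mir182, Rnf207, Serhl, Tmem199 and Tspan3, chosen after their values were seen.

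At 24 h the same treatment was measured in other libraries, and the difference between times was tested as an interaction. No gene passed the adjusted threshold in edgeR (0.0%), with 56 higher (0.343%) and 69 lower (0.423%) at an unadjusted p under 0.05, so a change of the gentamicin effect between 6 and 24 h was not shown for any gene. The counts of higher and lower genes were 97 and 134 without CTRL replicate 2 at 24 h, 59 and 35 without CTRL replicate 3 at 24 h, 97 and 98 without CTRL replicate 1 at 6 h, 91 and 100 without CTRL replicate 3 at 6 h and 80 and 125 without GM replicate 3 at 6 h. For 4 of the 7 tested IFN lists the medians for GM minus CTRL at 24 h were 0.35 for the antiviral effectors, 0.29 for the ISGylation and PARP genes, 0.44 for the GTPases and 0.28 for the sensors. At 6 h they had been 0.86, 0.95, 0.92 and 0.30. The 24 h medians were 0.17, 0.18, 0.23 and 0.13 without CTRL replicate 2 of 24 h, 0.21, 0.19, 0.11 and 0.20 without GM replicate 1, 0.45, 0.41, 0.70 and 0.20 without GM replicate 2, and 0.54, 0.49, 0.68 and 0.35 without CTRL replicate 3. The other IFN lists had 24 h medians of -0.01 for IFN signalling, 0.07 for MHC class I and 0.10 for MHC class II. Without CTRL replicate 2 of 24 h the MHC class I median was -0.05, and without GM replicate 2 the MHC class II median was -0.10. Macrophage genes were higher in 22 of 28 at 24 h with a median of 0.20, which was -0.04 without GM replicate 2 of 24 h. HC genes had a median of -0.43 at 24 h, with 12 of 37 below control without overlap, where 3.06% of all genes were below and 2.6% above. Over all genes 2 (0.0123%) passed the adjusted threshold at 24 h. Same-numbered CTRL and GM libraries deviated together at 24 h, and a replicate block gave 12 calls (6 higher, 6 lower), DESeq2 15 (8 higher, 7 lower), while a GC trend removed left 1 and a minimum of 10 counts in every library left 0 (smallest adjusted p 0.148 in edgeR). Leaving out CTRL replicate 1 or 3 or GM replicate 2 or 3 of 24 h left 1, and leaving out CTRL replicate 2 or 3 of 6 h or PIO replicate 3 of 6 h gave 4, 5 or 4. Without the block, 128 (0.784%) were higher and 144 (0.883%) lower at an unadjusted p under 0.05, which were 193 and 234 without CTRL replicate 2 and 127 and 92 without CTRL replicate 3 of 24 h.

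At 24 h Parp9 differed by 0.13, Trim12a by 0.27, Isg15 by 0.87 and Gbp6 by -0.16. Without single 24 h libraries these ranged from -0.08 to 0.27, from 0.08 to 0.37, from 0.47 to 1.55 and from -0.37 to 0.18. Crx was listed at 0.176, 0 and 0.262 CPM in CTRL and at 2.81, 3.04 and 3.40 in GM at 24 h, a fitted difference of 4.42 (SE 0.50) without overlap that depends on the prior count, since 1 control library had no count. Rasd2 (-1.32) and Hs3st3b1 (-0.49) were below control without overlap at 24 h as at 6 h, and Hes5 differed by -1.65 with overlapping groups, and by -0.61 without CTRL replicate 2 and -3.01 without GM replicate 2.

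Groups separated in the same direction at 6 h, at 6 h with pioglitazone and at 24 h in 10 genes that were higher (0.0613% of tested) and in 0 that were lower. They were Aida, Cdc6, Crx, Gbp9, Ifi204, Isg20, Itgae, Mndal, Mtfr2 and Syce1, chosen after their values were seen, and 4 of them were in the IFN lists.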

How the data were processed

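Reads were single, 76 bases long, from total RNA libraries sequenced on a NextSeq 500. The authors mapped them with RNA-STAR (build mm10 per the submitters' processing notes) and made the deposited counts with qCount of QuasR, which took each read whose first base fell in a RefSeq exon. These counts were not normalized. Use of strand in counting is not given in the sources used here, so overlapping antisense genes may share reads. For each library 2 flow cells are listed in the labels.

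Counts of all 24 libraries (8 groups) were fitted in R 4.3.3 with edgeR 4.0.16 (filterByExpr, TMM, quasi-likelihood F-test, a mean per group), with Benjamini-Hochberg adjustment over the 16317 tested genes and a threshold of 0.05. The common biological coefficient of variation was 0.225, with 16 residual degrees of freedom. SEs were derived from the F statistic. CPM use library totals scaled by TMM, and list levels use log2 CPM with a prior count of 2. DESeq2 1.42.0 was an alternative. Tables were made in Python 3.11.15 (numpy 2.4.6, pandas 2.3.3, scipy 1.17.1) and drawn with matplotlib 3.10.9.

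The members and the 35 gene lists were chosen with earlier results of these data known, so lists are described by counts and medians and have no test. Named genes are the genes the study followed, up to 10 in each direction with the lowest p among genes whose groups did not overlap and whose mean log2 CPM was at least 0, up to 4 in each direction from each list, and genes past the threshold in the other tests. Shared windows are 76-base stretches of a gene's longest GENCODE transcript that occur in transcripts of another gene. Alternatives were other scalings, filters and sets of libraries, a replicate block, removal of a GC trend, DESeq2 and leaving out each library. Results of some genes are not reported here.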

Additional observations from a re-analysis of the deposited data

Results flagged for a closer look

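In Mrps10, a protein of the mitochondrial ribosome, the gentamicin difference pointed in opposite directions without and with pioglitazone. At 6 h it was at 8.85, 9.62 and 9.42 CPM in CTRL and at 11.0, 10.3 and 11.6 in GM, a log2 difference of 0.24 with all GM libraries above CTRL, while PIO + GM against PIO gave -0.22 with all PIO + GM libraries below PIO. In Ddb2, a DNA damage sensor and p53 target, the direction differed between the times. It was at 9.01, 6.35 and 8.23 CPM in CTRL and at 11.8, 9.10 and 9.66 in GM at 6 h, a log2 difference of 0.37 with all GM libraries above CTRL, while at 24 h the difference was -0.15 with all GM libraries below CTRL. Both were singled out among 283 named genes because the groups did not overlap in either comparison and lay in opposite directions. Over all tested genes 3.14% lay above control without overlap at 6 h, 1.67% lay below with pioglitazone and 3.06% lay below at 24 h. How many of all tested genes separated in opposite directions was not counted. The test of the difference over all genes gave no adjusted p under 0.05 for either gene.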

How the results depend on the processing

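The count of 0 genes for GM against CTRL at 6 h, and for the interactions with time and with pioglitazone, held under every alternative run, as did 0 for PIO + GM against PIO except for 1 gene by DESeq2. The 2 calls of the mean effect were 0 in the 12 libraries of 6 h alone, 0 with a GC trend removed, 1 with the trend removed and a replicate block, 8 with the replicate block alone and 49 (48 higher, 1 lower) by DESeq2, and ranged from 0 to 16 when single libraries were left out. Replicate numbers did not pair the CTRL and GM libraries at 6 h, whose deviations correlated at 0.094, 0.135 and -0.190, nor PIO and PIO + GM, at 0.016, 0.332 and -0.176. Same-numbered GM and PIO libraries at 6 h correlated at 0.185, 0.434 and 0.684, and CTRL and PIO at 0.287, 0.200 and -0.136. For GM and PIO + GM the values were -0.305, 0.153 and -0.027, and for CTRL and PIO + GM 0.067, 0.021 and 0.261. At 24 h the same-numbered CTRL and GM libraries correlated at 0.428, 0.723 and 0.595, and the 2 calls there were 12 with the block, 1 with the GC trend removed and 0 with at least 10 counts in every library. With the replicate block GM against CTRL at 6 h still gave 0 calls (smallest adjusted p 0.496), with 259 genes higher and 204 lower at an unadjusted p under 0.05, against 157 and 86 without it. With the GC trend removed as well these were 330 and 312, without the filter 206 and 171, in the 12 libraries 112 and 32, and with at least 10 counts in every library 118 and 52. All 90 alternatives to the levels of 9 lists stayed within the spread between libraries. Leaving out 1 of 3 libraries could not move a level past this spread, so the count does not measure stability. Without single libraries the level difference ranged from 0.67 to 1.20 for antiviral effectors and from 0.0939 to 0.48 for MHC class I. It ranged from -0.26 to 0.22 for HC genes and from -0.19 to 0.39 for macrophage genes. Of 2289 alternatives to the values of 68 genes, 2266 kept the direction, and 23 in 9 genes reversed, 19 of them when a library was left out. Many of these alternatives left out a library of another group, which hardly enters this difference. Genes without overlap between groups can hardly turn when 1 library is left out, so the share kept is no measure of stability. Irf3 became 0.0274 without TMM factors, 0.0043 with at least 10 counts and 0.0001 in the 12 libraries, and Cd74 -0.0014 with the GC trend removed. When single libraries were left out, log2 differences ranged from -0.0674 to 1.80 for Ccl12, -1.16 to 1.14 for Ccl2, -0.29 to 0.42 for Cd74, -0.55 to 1.01 for H2-Ab1, -3.10 to 0.61 for Il1b, -0.0666 to 0.0694 for Irf3, -0.24 to 0.0867 for Jak1, -0.12 to 0.0308 for Mavs and -0.91 to 0.33 for Tecta. Leaving out 1 library of the comparison moved the difference by over 1.5 times, or turned it, in 32 of the 68 genes. The causes were not tested. Depth limited the values of genes at low counts, such as Crx, Casp1 and Ccl5, and left the IFN ligands untested.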
